A study of Mus musculus with 8 samples.

Results

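Liver-type plasma protein genes encode the proteins that hepatocytes release into blood. The 59 genes followed here were chosen by name from the 55487 gene identifiers in the files, after the contrast between knockout and control libraries had already been measured in them. They comprise 10 carriers, 18 protease inhibitors, 11 clotting proteins, 11 apolipoproteins, 5 complement proteins and 4 others. Because the members were selected on measured values of this contrast, their differences between genotypes are given as a description. Calls from the fit across all genes are stated only to say which members passed its limit, and nothing is supported with them.

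The series sequenced RNA of pancreatic beta cells, which make and secrete insulin, after dispersed mouse islets were sorted by flow cytometry. There were 4 libraries of genotype Control and 4 of genotype Chd4KO, in which the chromatin remodeller gene Chd4 was targeted in beta cells. Mice of both groups had received tamoxifen, so the drug itself was common to both. The labels give neither the Cre driver, the exact Control genotype, the age nor the time after tamoxifen. Each library carries its own animal number and was taken as 1 mouse. All Control animal numbers precede all Chd4KO numbers, and a difference in litter or collection time cannot be told apart from genotype.

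CHD4 powers the NuRD complex, an assembly that slides nucleosomes and takes acetyl groups off histones. Chd4 itself had 15.98, 13.4, 11.1 and 12.3 TPM in Control replicates 1 to 4 and 8.38, 6.18, 5.27 and 2.59 TPM in Chd4KO replicates 1 to 4. TPM is a transcript level scaled for gene length and to a fixed library total. Every Chd4KO library lay below every Control library, and transcripts were still present in all 4. Plasma protein genes are switched on in hepatocytes by liver-enriched factors, among them those of the HNF4, FOXA and C/EBP families. Some of these factors, HNF4A among them, are also made in beta cells.

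The libraries held 14.93 to 41.01 M reads in genes, with the deepest in Control. Insulin transcripts made up 38.1 to 41.8% of TPM in Control and 32.4 to 62.0% in Chd4KO, the highest share being in Chd4KO replicate 4. Of 10 beta cell markers, all tested, no value fell under 20.4 TPM in any library, 0 were called higher by limma and 2 lower, and 5 had every Chd4KO value below every Control value. At an unadjusted p under 0.05, 0 were higher and 6 lower, and voom on recovered reads called 0 higher and 2 lower. The called were Mafa, a transcription factor of mature beta cells, whose Control libraries averaged 166 ± 11.99 and Chd4KO libraries 46.96 ± 23.3 TPM (SD, n = 4 each; log2 difference -1.95 ± 0.36, SE), and the glucose transporter gene Slc2a2, at 170.3 ± 26.9 and 67.8 ± 24.8 TPM (SD, n = 4 each; log2 difference -1.37 ± 0.27, SE). The part of these markers in the members' values was not tested. A list of 15 acinar markers, genes of the enzyme-secreting cells around the islet, summed to 41295 TPM in Chd4KO replicate 2. The sum was 1638 TPM in Control replicate 2, and the remaining 6 libraries ranged from 2.63 to 239 TPM. Chd4KO replicate 2 therefore stood apart, and results that rest on it are given with and without it. In bulk samples fewer cells of a type and less RNA per cell cannot be told apart.

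In Control beta cells most plasma protein genes were close to silent. Under 1 TPM in all 4 Control libraries were 41 of the 59 members, and 10 of those were at 0 in all 4. In Chd4KO, 21 of these 41 reached 1 TPM in at least 1 library, 6 of them in at least 3 libraries. Of the 21, 11 did so in Chd4KO replicate 2 alone, the library with the highest acinar sum. The matching shares over all protein-coding genes were not computed, and nothing is read from these counts. The 4 that went from under 1 TPM in all Control to at least 1 TPM in all Chd4KO libraries were the antitrypsin copies Serpina1a and Serpina1b, the fetuin Fetub and the apolipoprotein Apof. The same change was met by 0.539% of detected protein-coding genes (93 of 17270), or by 1.72% of the 5392 that were under 1 TPM in all Control libraries. No member went the other way, a change that 40 protein-coding genes showed. By class, 3 of the 4 were protease inhibitors and 1 was an apolipoprotein, while carriers, clotting proteins, complement proteins and the others had 0.

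**Figure D1:**
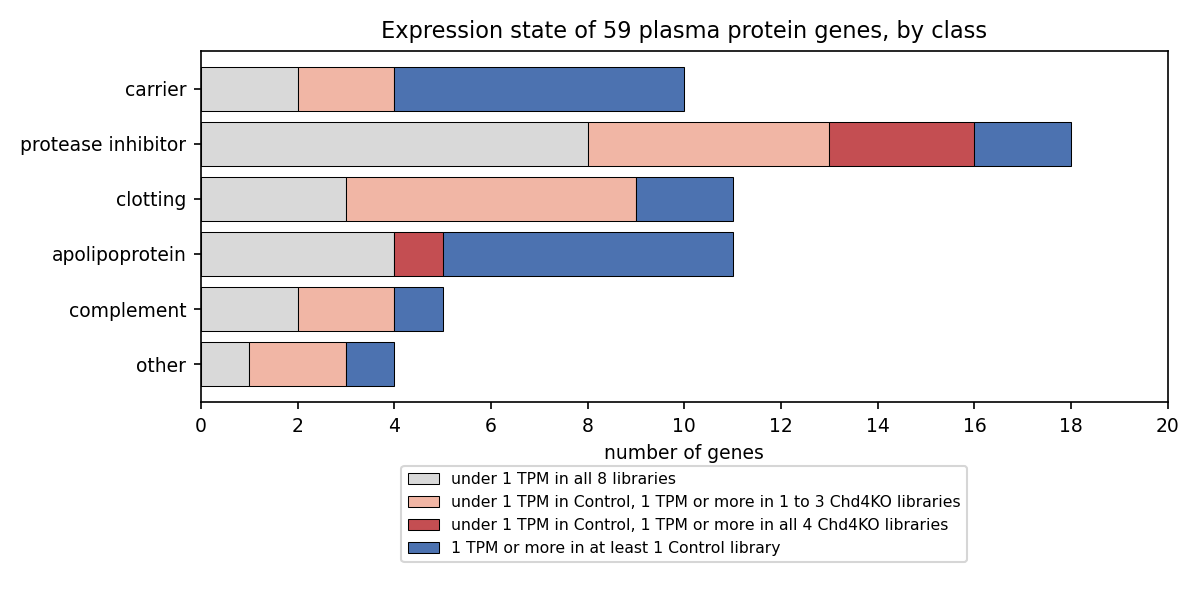
Number of the 59 plasma protein genes in each expression state (x axis) by class (y axis). Red marks genes under 1 TPM in all 4 Control and at least 1 TPM in all 4 Chd4KO libraries, 3 protease inhibitors and 1 apolipoprotein, and grey marks the 20 genes under 1 TPM in all 8 libraries.

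The limit of 1 TPM left some genes just inside and others just outside. Just inside were Apof, at 0.927 TPM in Control replicate 3, and Serpina1a, at 1.08 TPM in Chd4KO replicate 2. Just outside were Alb, at 0.907 TPM in Chd4KO replicate 2, and Trf, at 1.06 TPM in Control replicate 1. With a limit of 0.5 TPM the count was 2 (Serpina1a and Serpina1b), and with 2 TPM it was 3 (Trf, Fetub and Apof). With silence set at under 0.5 TPM and expression at 2 TPM or more it was 0: Fetub and Apof were above 0.5 TPM in at least 1 Control library, and Serpina1a and Serpina1b were under 2 TPM in at least 1 Chd4KO library. With all libraries thinned to the depth of the shallowest it was 4 and held the same genes. It was also 4 with median-of-ratios scaling, where Trf stood in place of Serpina1a, and 5 with scaling without hormones and mitochondrial genes, where Alb and F7 came in and Apof dropped out.

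The 59 genes together summed to 288 to 368 TPM per Control library and to 929, 1840, 697 and 712 TPM in Chd4KO replicates 1 to 4. All 4 Chd4KO sums lay above all Control sums. Between 13 and 17 members were at 1 TPM or more in each Control library, against 24, 33, 20 and 20 in Chd4KO replicates 1 to 4. The most abundant member was Clu in all 4 Control libraries and in Chd4KO replicates 3 and 4, Ambp in Chd4KO replicate 1 and Serping1 in Chd4KO replicate 2.

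The fit across all genes used limma on log2(TPM + 1) with genes at 1 TPM or more in at least 4 libraries. It tested 18 of the 59 members, and 8 were called higher in Chd4KO at a Benjamini-Hochberg adjusted p under 0.05: Ambp, Serpina7, Trf, Proc, Fetub, Apof, Serpina1a and Serpina1b. Of all 15189 genes tested 1.53% were called higher. No member was called lower by limma, against 1.44% of all genes; 1 member was lower at an unadjusted p under 0.05, and voom on recovered reads also called 0. The median log2 difference of all genes tested was -0.25. It was -0.03 with median-of-ratios scaling and -0.05 without Chd4KO replicate 4. Median-of-ratios scaling raised the differences of called members by unequal amounts, from 2.53 to 2.80 in Ambp and from 1.19 to 1.28 in Serpina1b. Nothing is read from the members' shares, since the contrast chose the members and since 4 of the 8 passed the filter through their Chd4KO values alone. Trf would also have passed on its Chd4KO values, since in Control only replicate 1 reached 1 TPM. Over all members, all 4 Chd4KO values lay above all 4 Control values in 18, against 3.99% of detected protein-coding genes, and below them in 1, against 9.42%. Without Chd4KO replicate 2 the first count was 19, with the vitamin D carrier Gc added, and the second was 2, with the copper carrier gene Cp beside Apob. Of the 10 tested members that were not called, F2 was called higher in 7 of 18 alternatives, Agt in 7 of 19, Clu in 4 of 19 and Gc in 1 of 19.

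**Figure D2:**
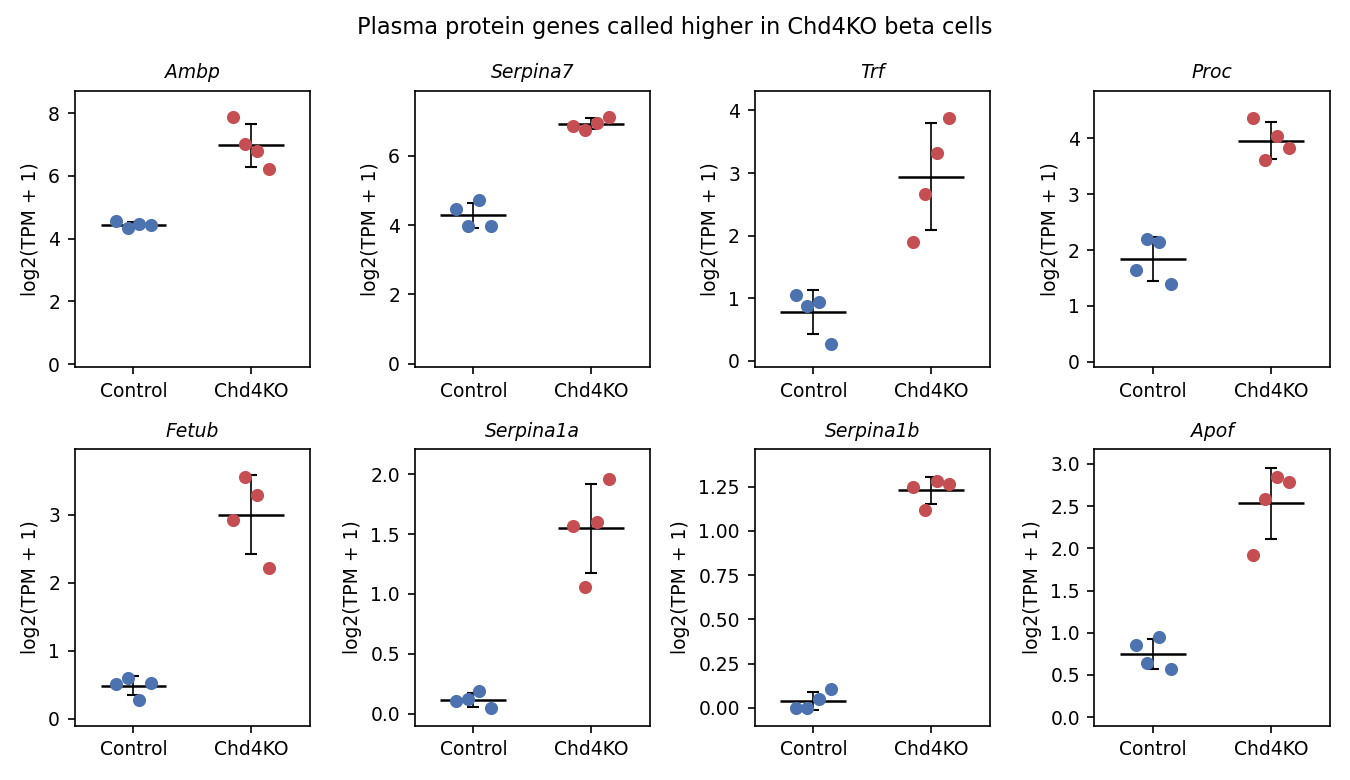
Levels of the 8 called plasma protein genes as log2(TPM + 1) (y axis) in Control and Chd4KO (x axis), with 1 point per library, horizontal lines at group means and bars of 1 SD (n = 4 each). The groups do not overlap in any panel, and the y axes differ between panels.

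Among the carriers, Ambp and Serpina7 were well expressed in Control and more so in every Chd4KO library. Ambp, the precursor of alpha-1-microglobulin and of the protease inhibitor bikunin (ENSMUSG00000028356, chromosome 4, 63143275 to 63154799 in GRCm38 by GENCODE M21), had 22.4, 19.4, 20.9 and 20.5 TPM in Control replicates 1 to 4 and 235, 129, 109 and 73.3 TPM in Chd4KO replicates 1 to 4. The lowest knockout value was 3.26-fold the highest Control value, and replicate 1 was highest. Control averaged 20.8 ± 1.27 TPM and Chd4KO 137 ± 69.7 TPM (SD, n = 4 each), a log2 difference of 2.53 ± 0.32 (SE).

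Serpina7 encodes thyroxine-binding globulin, a serpin that carries thyroid hormone rather than inhibiting a protease (ENSMUSG00000031271, chromosome X, 139079257 to 139085236). Its TPM was 21.2, 14.7, 25.2 and 14.6 in Control replicates 1 to 4 and 116, 107, 122 and 139 in Chd4KO replicates 1 to 4. In TPM as deposited the knockout libraries were close to each other, at 121 ± 13.5 TPM against 18.9 ± 5.196 TPM in Control (SD, n = 4 each; log2 difference 2.64 ± 0.22, SE). That closeness depends on the scaling, since the median-of-ratios factor was 0.574 in Chd4KO replicate 4 and 0.962 to 1.15 in the other Chd4KO libraries.

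Trf, the iron carrier transferrin (ENSMUSG00000032554, chromosome 9, 103204001 to 103230444), was near 1 TPM in Control, with 1.06, 0.82896, 0.924 and 0.208 TPM, and had 2.74, 5.33, 8.97 and 13.7 TPM in Chd4KO. No knockout value fell to the Control range, but the spread within Chd4KO was wide (log2 difference 2.16 ± 0.40, SE). Trf was highest in replicate 4, the library with the lowest Chd4, and lowest in replicate 1, the library with the highest Chd4, whereas Ambp was highest in replicate 1 and lowest in replicate 4. These orders are of TPM as deposited. Replicate 4 also had the largest insulin share, 62.0%. Its median-of-ratios factor was 0.574, against 0.962 to 1.15 in the other Chd4KO libraries, and the order of Ambp depends on this scaling. With 4 libraries a relation to Chd4 was not tested. The call on Trf was met in 10 of 18 alternatives and was lost without Chd4KO replicate 3 and without any 1 of the Control libraries, with log2 differences of 1.84 to 2.50 over the fits that left out 1 library.

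Albumin, the main plasma protein, and the vitamin D carrier Gc were outside the called set. Alb (chosen for description after its values were seen) had 0.0603, 0.507, 0.109 and 0.0535 TPM in Control and 7.54, 0.907, 4.85 and 5.77 TPM in Chd4KO, and replicate 2 alone kept it from the filter. Gc had 28.9, 27.03, 46.8 and 25.4 TPM in the Control libraries and 77.6, 46.2, 70.1 and 103 TPM in the Chd4KO libraries, overlapping by 1 library on each side (log2 difference 1.17 ± 0.29, SE).

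The remaining carriers stayed low. Afp, the fetal counterpart of albumin, whose gene lies next to Alb on chromosome 5, peaked at 0.101 TPM. Serpina6, which carries corticosteroids, did not exceed 0.2397 TPM. Hemopexin (Hpx) and the copper carrier ceruloplasmin (Cp) had means of 0.638 and 0.839 TPM in Control and 0.483 and 0.614 TPM in Chd4KO, with overlapping groups. The overlap of Cp came from Chd4KO replicate 2, at 1.55 TPM. Without it the Chd4KO mean of Cp was 0.301 TPM, and its values of 0.0353 to 0.534 TPM lay below all Control values, which ran from 0.679 to 1.004 TPM. The hemoglobin carrier haptoglobin (Hp) was at 4.85 TPM in Chd4KO replicate 2 and at 0 in the other 3 knockout libraries.

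The protease inhibitors include the 5 copies of alpha-1-antitrypsin, which restrains neutrophil elastase, and these were nearly off in Control. They lie together on chromosome 12, and in Control the highest value of any copy was 0.387 TPM, of Serpina1d. Serpina1a (ENSMUSG00000066366, chromosome 12, 103853589 to 103863562) had 0.0771, 0.0884, 0.1396 and 0.0342 TPM in Control and 1.96, 1.08, 2.04 and 2.903 TPM in Chd4KO. Serpina1b (ENSMUSG00000071178, chromosome 12, 103728156 to 103830373) had 0, 0, 0.0353 and 0.0778 TPM in Control and 1.37, 1.17, 1.43 and 1.398 TPM in Chd4KO. Neither overlapped between groups, and the log2 differences were 1.43 ± 0.21 and 1.19 ± 0.15 (SE), on 130 and 109 reads over the knockout libraries.

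The other 3 copies were less even (described after their values were seen). Serpina1c was at 0 in all Control libraries and at 0.304, 2.39, 0.916 and 0.9304 TPM in Chd4KO, at least 27.5-fold higher against a floor of 3 reads over the Control group. Without Chd4KO replicate 2 this bound was 17.3-fold. Serpina1d was at 2.57, 2.54, 0.199 and 0.182 TPM in Chd4KO and Serpina1e at 0.683, 4.38, 0 and 0 TPM, so both were seen mainly in replicates 1 and 2. The copies cannot be fully separated: of the 50-base stretches in their exons, 51.4% of Serpina1a, 28.2% of Serpina1b, 73.3% of Serpina1c, 48.0% of Serpina1d and 34.6% of Serpina1e also occur in another copy. The annotated span of Serpina1b covers that of Serpina1d, and B430119L08Rik overlaps Serpina1c on the opposite strand, whose reads an unstranded kit cannot tell apart. B430119L08Rik averaged 0.0157 TPM in Control and 0.813 TPM in Chd4KO.

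The promoters of a few members are shown because the members differ in whether they hold letters known as motifs of the liver-enriched factors. Each is the 250 bases before a RefSeq transcription start (249 for Ambp, where 1 base in an exon is left out), in GRCm38, read 5′ to 3′ on the strand of the gene. Capitals mark TTGCNNAA (C/EBP), TGTTTAC (FOXA), CAAAGTCCA (HNF4), each searched on both strands, and TATAAA on the gene's strand. The motifs were chosen after these sequences were seen. Alb lies at chr5:90460620-90460869 on the plus strand, Serpina1a at chr12:103863620-103863869, Serpina1b at chr12:103738190-103738439, Serpina7 at chrX:139085237-139085486 and Ambp at chr4:63154174-63154422, all 4 on the minus strand. The Ambp and Serpina1b bases lie inside the GENCODE spans of those genes and outside their exons, and those of Alb, Serpina1a and Serpina7 lie upstream of the gene.
Alb: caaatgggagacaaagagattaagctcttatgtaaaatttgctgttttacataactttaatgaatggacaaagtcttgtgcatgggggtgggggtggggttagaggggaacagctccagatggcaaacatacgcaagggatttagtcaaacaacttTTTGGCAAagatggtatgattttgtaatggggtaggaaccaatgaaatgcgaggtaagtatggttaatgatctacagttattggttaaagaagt
Serpina1a: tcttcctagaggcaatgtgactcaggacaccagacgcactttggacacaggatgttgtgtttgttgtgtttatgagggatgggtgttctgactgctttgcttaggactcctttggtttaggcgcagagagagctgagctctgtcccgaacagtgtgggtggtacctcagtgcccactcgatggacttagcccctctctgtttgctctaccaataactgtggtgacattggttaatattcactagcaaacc
Serpina1b: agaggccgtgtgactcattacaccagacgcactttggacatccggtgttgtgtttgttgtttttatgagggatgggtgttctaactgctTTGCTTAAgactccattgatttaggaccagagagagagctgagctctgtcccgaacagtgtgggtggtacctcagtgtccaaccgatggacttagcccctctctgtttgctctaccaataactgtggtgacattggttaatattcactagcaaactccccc
Serpina7: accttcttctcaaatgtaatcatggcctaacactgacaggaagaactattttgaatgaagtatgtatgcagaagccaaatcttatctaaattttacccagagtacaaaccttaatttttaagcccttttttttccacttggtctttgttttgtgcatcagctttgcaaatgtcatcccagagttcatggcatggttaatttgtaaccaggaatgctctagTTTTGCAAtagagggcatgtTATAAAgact
Ambp: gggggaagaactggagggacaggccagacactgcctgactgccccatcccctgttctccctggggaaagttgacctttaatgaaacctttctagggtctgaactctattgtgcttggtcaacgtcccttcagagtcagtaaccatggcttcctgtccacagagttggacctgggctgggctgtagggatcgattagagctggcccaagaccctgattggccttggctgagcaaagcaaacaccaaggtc

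Serpina1a and Serpina1b share 227 identical bases over 258 columns of alignment (87.98%). A C/EBP match begins at -161 in Serpina1b, counted from the RefSeq start, and Serpina1a has none. Alb has a C/EBP match from -94. Serpina7 has a C/EBP match from -30 and TATAAA from -10, relative to the more upstream of its RefSeq starts. Relative to its other start these begin at -47 and -27. Fetub, whose bases are not printed, has a FOXA match from -236, relative to a RefSeq start inside its GENCODE span. The Ambp and Serpina1a bases hold none of these motifs, which says only that these letters are not in these windows.

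RefSeq gave windows for 44 of the 59 members (50 windows), including 5 of the 8 called. TTGCNNAA occurred in 36% of the member windows and 9.56% of all 32851 windows, and TATAAA in 20% and 7.59%. TGTTTAC occurred in 6% and 3.17%, and CAAAGTCCA in 0% and 0.384%. Among members with TTGCNNAA were Alb, Serpina1b and Serpina7, but also Afp and Ahsg, which stayed under 1 TPM in all 8 libraries. A match describes letters, not binding.

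Fetub encodes fetuin-B, a protease inhibitor of liver known for keeping the egg coat penetrable before fertilisation (ENSMUSG00000022871, chromosome 16, 22918334 to 22939778). It had 0.432, 0.523, 0.217 and 0.447 TPM in Control and 6.61, 10.8, 8.76 and 3.66 TPM in Chd4KO. The groups were far apart, with means of 0.405 ± 0.131 and 7.46 ± 3.06 TPM (SD, n = 4 each; log2 difference 2.51 ± 0.28, SE). Of its relatives nearby, fetuin-A (Ahsg), histidine-rich glycoprotein (Hrg) and kininogen (Kng1), all on the same stretch of chromosome 16, peaked at 0.0246, 0 and 0.0436 TPM over the 8 libraries. The second kininogen gene Kng2, 111148 bases from the start of Fetub (named after its values were seen), was at 1.86 TPM in Chd4KO replicate 2, at 0 in the other 3 Chd4KO libraries and at no more than 0.0592 TPM in Control.

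Serping1 and Serpina10 were already on in Control, and both were highest in Chd4KO replicate 2. Serping1, the C1 inhibitor that holds back complement and contact activation, had 16.9, 26.9, 31.5 and 18.9 TPM in Control and 87.4, 669.8, 37.9 and 46.00 TPM in Chd4KO, all 4 above Control, with replicate 2 far higher (log2 difference 2.10 ± 0.80, SE, not called). Without that library the difference was 1.19. Serpina10, which inhibits factor Xa together with protein Z, had 39.4, 52.8, 50.8 and 48.9 TPM in Control and 61.4, 205, 37.3 and 19.8 TPM in Chd4KO. Its log2 difference of 0.22 ± 0.59 (SE, not called) turned to -0.41 without replicate 2.

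The other protease inhibitors showed little transcript in either group. Antithrombin (Serpinc1), alpha-2-antiplasmin (Serpinf2), the inter-alpha-trypsin inhibitor heavy chains Itih1, Itih2 and Itih3, fetuin-A and kininogen were under 1 TPM in all 8 libraries, and Serpina3k was at 0 in all 8. Heparin cofactor II (Serpind1) reached 1.07 TPM in Chd4KO replicate 1 alone and Itih4 2.46 TPM in replicate 2 alone.

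**Figure D3:**
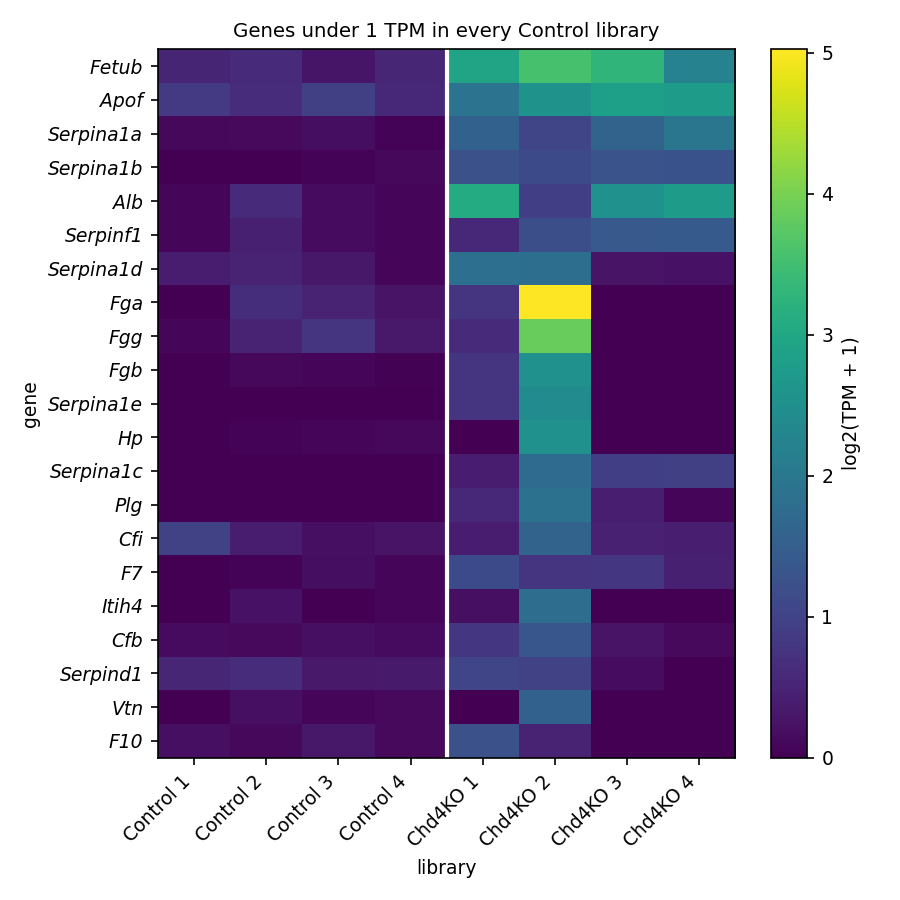
Levels, as log2(TPM + 1) by colour, of the 21 plasma protein genes under 1 TPM in every Control library that reached 1 TPM in at least 1 Chd4KO library (y axis), by library (x axis). The upper rows are high across Chd4KO libraries, and 11 of the genes reach 1 TPM in Chd4KO replicate 2 alone.

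Among clotting proteins, protein C was the 1 called. Proc, the precursor of the anticoagulant protease that cuts factors V and VIII (ENSMUSG00000024386, chromosome 18, 32123126 to 32139570), had 2.11, 3.57, 3.44 and 1.62 TPM in Control and 19.7, 11.2, 15.5 and 13.1 TPM in Chd4KO. The lowest knockout value was 3.13-fold the highest Control value (means 2.68 ± 0.971 and 14.9 ± 3.67 TPM, SD, n = 4 each; log2 difference 2.12 ± 0.26, SE).

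Prothrombin, factor VII and plasminogen were also higher in every Chd4KO library than in any Control library, at lower levels (named after their values were seen). F2, prothrombin, had 3.26, 2.88, 3.600 and 3.53 TPM in Control and 7.99, 8.103, 6.79 and 3.71 TPM in Chd4KO, without overlap. It was not called, but was in 7 of 18 alternatives, among them median-of-ratios scaling, quantile normalisation, array weights and voom, with log2 differences of 0.68 to 1.25 over all 18. F7, which starts clotting with tissue factor, had 0, 0.02903, 0.138 and 0.0674 TPM in Control and 1.19, 0.685, 0.745 and 0.363 TPM in Chd4KO. Plg, the precursor of the clot-dissolving plasmin, was at 0 in all Control libraries and at 0.483, 2.71, 0.336 and 0.0682 TPM in Chd4KO, at least 59.3-fold higher against a floor of 3 reads over the Control group. Without Chd4KO replicate 2 this bound was 19.5-fold. F10, next to F7 on chromosome 8, reached 1.36 TPM in Chd4KO replicate 1 and was at 0 in replicates 3 and 4.

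Fibrinogen, the clot-forming protein built from the chains of Fga, Fgb and Fgg, was a feature of a single library. The 3 genes sit side by side on chromosome 3 and had 31.6, 4.79 and 13.5 TPM in Chd4KO replicate 2. In Chd4KO replicates 3 and 4 all 3 were at 0, and in replicate 1 they were between 0.527 and 0.688 TPM. In Control they did not exceed 0.692 TPM. Factors V, IX and XII (F5, F9, F12) were under 1 TPM in all 8 libraries.

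Replicate 2 also held the only values at 1 TPM or more of Hp, Serpina1c, Serpina1e, Itih4, Plg, Cfb, Cfi and Vtn, making 11 members with the fibrinogen chains. It was the highest library for 18 of the members that reached 1 TPM anywhere. Outside the members, 13 of the 64 other plasma protein genes were at 1 TPM or more there and at least 2-fold above each of the other 7 libraries (a rule chosen after the values were seen). Among them were Serpina3n at 1179 TPM, Lrg1 at 75.1 TPM, Lcn2 at 33.5 TPM and C4b at 32.7 TPM, against at most 5.41, 0.196, 0.143 and 0.533 TPM elsewhere. Selenop, at 1652 TPM, and Ang, at 157.8 TPM, were also in the set, with up to 646 and 34.97 TPM elsewhere. The same library had the acinar sum of 41295 TPM, with all 15 acinar markers above 0 in at least 1 library, and the highest sum of 12 genes of acute-phase signalling, 1515 TPM against 170 to 1177 TPM in the other Chd4KO and 655 to 789 TPM in the Control libraries. Of the acute-phase signalling genes 10 were tested and limma called 0, with 0 at an unadjusted p under 0.05 and 0 by voom. The highest in level were the NF-kappa-B inhibitor Nfkbia, at 180.03 ± 41.03 and 341 ± 349 TPM, and the cytokine-signal inhibitor Socs3, at 164 ± 106 and 142 ± 146 TPM (SD, n = 4 each). The part of acinar or acute-phase genes in these values was not tested. Without replicate 2, the 8 called members had log2 differences of 1.22 to 2.70 and all 8 were still called, along with Alb at 2.58, Gc at 1.38 and Agt at 0.99.

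Of the apolipoproteins, which coat lipid particles, Apof was the 1 called. Apof, an inhibitor of lipid transfer between particles (ENSMUSG00000047631, chromosome 10, 128268671 to 128270153), had 0.804, 0.559, 0.927 and 0.486 TPM in Control and 2.79, 4.98, 6.17 and 5.899 TPM in Chd4KO. All Chd4KO values lay above Control, replicate 1 being nearest (log2 difference 1.78 ± 0.24, SE). Clu, clusterin, an extracellular chaperone that also travels with lipid particles, was the member with the highest Control level. Its TPM was 105, 131, 109 and 86.4 in Control and 174, 251, 158 and 163 in Chd4KO, without overlap but not called (log2 difference 0.77 ± 0.22, SE). Apoa2, a protein of high-density lipoprotein, had 4.99, 4.82, 7.14 and 7.47 TPM in Control and 8.22, 8.17, 13.4 and 29.7 TPM in Chd4KO (log2 difference 0.99 ± 0.38, SE, not called).

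Apob, the scaffold of very-low-density lipoprotein, was the 1 member with all Chd4KO values below Control (named after its values were seen). It had 6.697, 1.19, 0.936 and 1.53 TPM in Control and 0.723, 0.437, 0.348 and 0.103 TPM in Chd4KO, and Control replicate 1 accounted for most of the Control mean. Apoe and Apoh were tested and not called, with means of 7.98 ± 4.89 and 9.84 ± 6.27 TPM for Apoe and 5.84 ± 1.56 and 4.75 ± 1.15 TPM for Apoh (SD, n = 4 each). Apoa1 lay between 0.273 and 1.37 TPM over the 8 libraries, Apoc3 and Apom stayed under 1 TPM, and Apoa4 and Apoc1 were at 0 in all 8.

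No complement gene was called. C3, on which all complement pathways converge, had 10.3, 9.08, 13.7 and 12.3 TPM in Control and 9.44, 5.86, 8.51 and 4.45 TPM in Chd4KO, with overlap (log2 difference -0.65 ± 0.25, SE, not called). Factor B (Cfb) and factor I (Cfi) reached 1.55 and 2.04 TPM in Chd4KO replicate 2 and stayed under 1 TPM elsewhere. The C5a receptor C5ar1 and the lectin Mbl2 were under 1 TPM in all 8 libraries.

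Of the 4 other genes, angiotensinogen was the most abundant. Agt, the precursor of angiotensin, had 33.00, 39.3, 34.9 and 32.8 TPM in Control and 83.8, 270.1, 59.3 and 69.2 TPM in Chd4KO, all above Control (log2 difference 1.47 ± 0.43, SE, not called). Replicate 2 was again the highest. Serpinf1, the factor PEDF of matrix and vessels (named after its values were seen), had 0.0598, 0.366, 0.108 and 0.0531 TPM in Control and 0.468, 1.32, 1.64 and 1.68 TPM in Chd4KO. The adhesion protein vitronectin (Vtn) was seen at 1.95 TPM in replicate 2 and at 0 in the other 3 Chd4KO libraries.

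**Figure D4:**
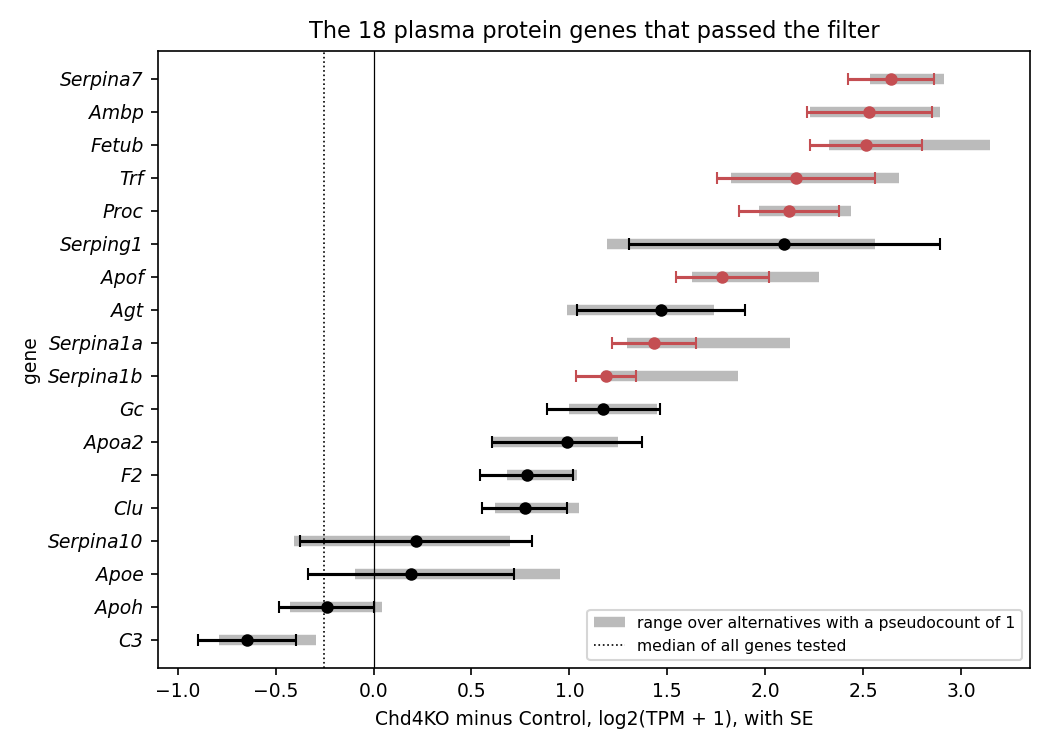
Difference between Chd4KO and Control on the log2(TPM + 1) scale (x axis) for the 18 plasma protein genes that passed the filter (y axis), with points at the estimate, bars of 1 SE, red for the 8 called higher and grey for the range over alternatives with a pseudocount of 1. The grey ranges of Serpina10, Apoe and Apoh cross 0, and the dotted line at -0.25 is the median of all genes tested.

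Further plasma protein genes were measured beside the members. A separate list of 65 further plasma protein genes, of which 64 were found and 19 tested, had 2 called higher and 0 called lower by limma, against 1.53% and 1.44% of all genes. Of this list, Rbp4, which was among the called, and Ttr had been seen in earlier results of these data. At an unadjusted p under 0.05, 3 genes of the list were higher and 1 was lower, and voom called 2 higher and 0 lower. Its median log2 difference was -0.06, beside -0.25 for all genes tested, and 35 of the 64 were under 1 TPM in all 8 libraries. Apod, a lipocalin of small lipophilic ligands, rose from 1.197 ± 0.161 TPM in Control to 7.45 ± 1.59 TPM in Chd4KO (log2 difference 1.93 ± 0.19, SE; limma adjusted p = 0.00121), and was higher in 4 of 4 libraries. Its values were 0.986, 1.28, 1.36 and 1.17 and 5.997, 6.26, 9.301 and 8.22 TPM, and its call was met in 19 of 19 alternatives. Rbp4, the retinol carrier, which is also listed here as a marker of delta and PP cells, rose from a Control mean of 171 ± 81.3 TPM to a Chd4KO mean of 575 ± 174 TPM (SD, n = 4 each; log2 difference 1.80 ± 0.36, SE; limma adjusted p = 0.033, and 0.0104 to 0.121 over the alternatives).

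Hepatocyte genes whose products stay in the cell were measured beside the secreted ones. Of 26 liver-enriched transcription factors 15 were tested and 1 was called higher by limma, against 1.53% of all genes. Nr0b2, the bile-acid-responsive repressor SHP, rose from a Control mean of 0.1399 ± 0.167 TPM to a Chd4KO mean of 2.11 ± 1.13 TPM (SD, n = 4 each; log2 difference 1.39 ± 0.26, SE; limma adjusted p = 0.0255, and 0.00152 to 0.103 over the alternatives). It was under 1 TPM in all Control and above 1 TPM in all Chd4KO libraries, so it passed the filter through the latter, and its call was met in 11 of 18 alternatives. The factors with the highest levels were not called: Cebpb was at 99.7 ± 14.97 and 94.8 ± 44.5 TPM and Cebpd at 49.8 ± 11.6 and 95.2 ± 112 TPM, the latter with 260.4 TPM in Chd4KO replicate 2. Hnf4a, given because its motif was searched, was at 23.97 ± 1.43 and 14.8 ± 11.9 TPM and was not called. All 4 Chd4KO values lay above all Control values in 4 of the 26 factors, against 3.99% of detected protein-coding genes, and below them in 0, against 9.42%. Beside Nr0b2 these were Nr1i2, Creb3l3 and Onecut2 (named after their values were seen), which did not pass the filter. Their means were 0.302, 0.266 and 0.0667 TPM in Control and 1.41, 0.853 and 0.238 TPM in Chd4KO.

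Of 40 hepatocyte enzymes 13 were tested and limma called 0 in either direction. At an unadjusted p under 0.05, 4 were higher and 1 was lower, and voom on recovered reads called 1 higher and 1 lower. The enzymes with the highest levels were Acly, of fatty acid synthesis, at 1498 ± 262 and 826 ± 475 TPM, and the alcohol dehydrogenase Adh1 at 99.4 ± 6.42 and 99.7 ± 44.9 TPM (SD, n = 4 each). Cps1, the first enzyme of the urea cycle and a defining hepatocyte gene, was at 0 in all 8 libraries, and 7 of the 40 enzymes were at 0 throughout. The summed level of the 40 was 1507 to 2122 TPM in Control and 482 to 1507 TPM in Chd4KO, most of it Acly. The remaining 39 summed to 258, 259.8, 271 and 264 TPM in Control replicates 1 to 4 and to 212, 376, 248 and 292 TPM in Chd4KO replicates 1 to 4, with overlap.

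Markers of other cell types were summed as a check on the sort. Leukocyte markers (16 genes) summed to 124 to 155 TPM in Control and 129 to 225 TPM in Chd4KO, and of 8 tested limma called Cd68 and Fcer1g higher. The common leukocyte antigen Ptprc stayed under 1 TPM in all 8 libraries. Alpha cell markers (10 genes, the member Gc among them) summed to 1509 to 2900 and 841 to 4237 TPM, with overlap. Ductal markers (12 genes, the members Ambp and Clu among them) summed to 1330 to 2342 and 1121 to 3636 TPM, with overlap. Delta and PP cell markers (8 genes) summed to 2441 to 4991 and 2883 to 5521 TPM, also with overlap. Of 10 ductal markers tested limma called 1 higher, the member Ambp, and 1 lower, the chloride channel gene Cftr, whose Control libraries averaged 4.04 ± 2.85 and Chd4KO libraries 0.251 ± 0.218 TPM (SD, n = 4 each; log2 difference -1.87 ± 0.35, SE), without overlap. Endothelial markers (10 genes) summed to 5.63 to 6.12 and 6.44 to 9.84 TPM, and mesenchymal markers (10 genes) to 0.148 to 0.671 and 0.901 to 1.57 TPM, both without overlap between groups. Their part in the members' values was not tested. Single endothelial markers went both ways. Egfl7 was above every Control value in all Chd4KO libraries, with means of 1.30 TPM in Control and 2.88 TPM in Chd4KO. Esam was below every Control value, with means of 4.10 and 3.32 TPM, so the endothelial sums do not describe the markers as a set. None of the 10 mesenchymal markers reached 1 TPM in any library.

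Genes next to the called members were measured to describe their surroundings. Within 200 kb of the starts of the 8 called genes lie 101 other genes, leaving out the 59 members, of which 32 were tested, and limma called 0 higher and 1 lower. At an unadjusted p under 0.05, 0 were higher and 3 were lower, and voom called 1 higher and 1 lower. The 1 lower gene was Kif12, a kinesin motor gene 17.3 kb from the start of Ambp. Kif12 had 244, 309.7, 311 and 257 TPM in Control replicates 1 to 4 and 85.3, 83.8, 80.6 and 45.8 TPM in Chd4KO replicates 1 to 4. Every Chd4KO value lay below every Control value, with a log2 difference of -1.94 ± 0.24 (SE; limma adjusted p = 0.0033), and the call was met in 19 of 19 alternatives, at -2.03 to -1.65. Ambp and Kif12 thus differed in opposite directions at 1 locus. Around Serpina1a and Serpina1b lie 17 such genes, and 0 of them passed the filter. With no filter 64 neighbours were tested, and limma called 2 higher and 1 lower. Among neighbours that did not pass, Myo7b near Proc had 0.0161 to 0.0935 TPM in Control and 0.549 to 1.22 TPM in Chd4KO. Gm47438 near Apof and B430119L08Rik near Serpina1a also had every Chd4KO value above every Control value. These genes were named after their values were seen. Members also lie within 200 kb of each other. Near Fetub these are Ahsg, Hrg and Kng1, and near Serpina1a or Serpina1b they are the other Serpina1 copies, Serpina6 and Serpina10. The start of Serpina10 is 198.9 kb from that of Serpina1b. Starts here are those of the GENCODE spans. The RefSeq start used for the Serpina1b promoter lies inside that span, so distances and neighbours counted from it would differ. Of these 8 uncalled members, Serpina10 was the 1 tested.

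**Figure D5:**
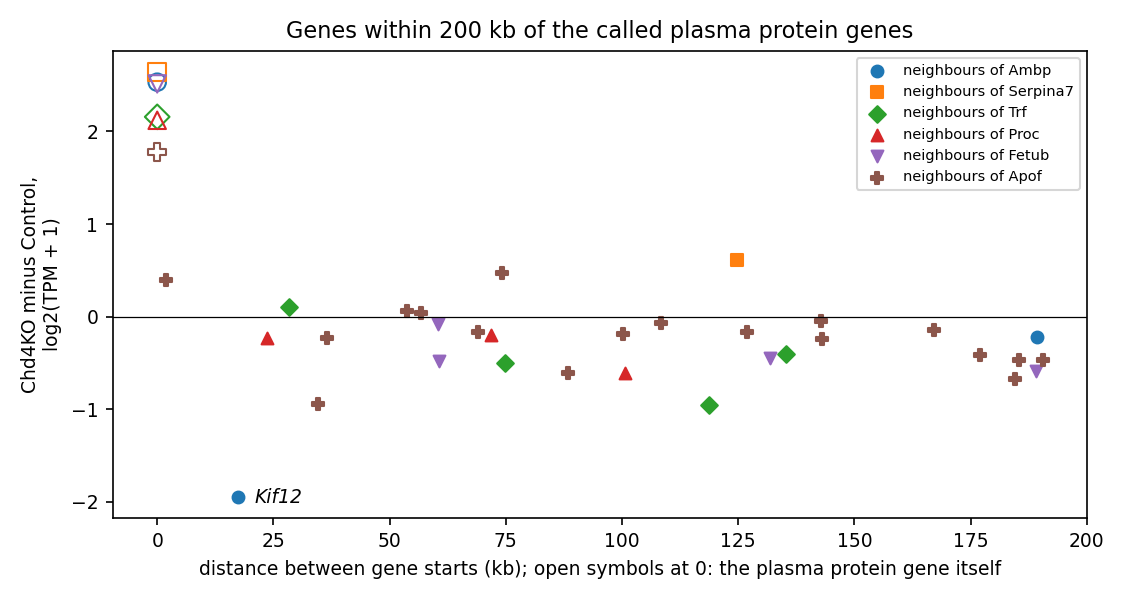
Difference between Chd4KO and Control on the log2(TPM + 1) scale (y axis) for the 32 tested genes within 200 kb of a called plasma protein gene, against the distance between gene starts in kb (x axis), with symbols by the plasma protein gene they neighbour and open symbols for that gene itself. Kif12, at 17.3 kb from Ambp, is the 1 neighbour called.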

How the data were processed

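RNA of flow-sorted mouse beta cells was sequenced in 4 Control and 4 Chd4KO libraries, made with SMART-Seq v4 and Nextera XT kits that do not mark strand, from RNA that passed an integrity minimum, per the labels' protocols. The authors deposited TPM per gene, 1 table per library. The submitters' processing notes name mm10 as the build and HISAT2, HTSeq, Trimmomatic, FastQC and DESeq2 as tools, with no versions. Identifiers were matched to GENCODE M21, which held 55227 of 55487 (99.53%). Because TPM has a fixed total, a larger insulin share lowers other genes. Values below about 1 TPM rest on few reads.

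Whole reads were recovered from TPM and exon length for 98.6 to 98.86% of values (tolerance 0.05 read). Genes at 1 TPM or more in at least 4 libraries were tested with limma 3.58.1 (R 4.3.3) on log2(TPM + 1), two-sided, with Benjamini-Hochberg adjustment over all 15189 genes, called at 0.05. The pseudocount of 1 understates changes of low genes. The fit was tested on simulated data. Python 3.11.15 with pandas 2.3.3, numpy 2.4.6, scipy 1.17.1 and matplotlib 3.10.9 was used otherwise. The members and lists were chosen with earlier results of these data known. Named with values in every library are members called, switched on, or at a mean of 10 TPM or more. Other lists give up to 4 called genes and, with at most 1 called, the 2 tested genes of highest TPM, and called neighbours are named. Promoters are from RefSeq (GRCm38.p6). Alternatives covered pseudocount, filter, scaling, variance model, array weights, replicate block, voom on recovered reads and left-out libraries.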

Additional observations from a re-analysis of the deposited data

Results flagged for a closer look

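In a group of 4 libraries a value was listed when its gap to the nearest other library, divided by the range of the group, exceeded the Dixon limit for 4 values at the 95% level. Of 56 groups of member values tested, 14 met this. The nominal rate of about 1 in 20 groups holds for unselected, normally distributed values. It cannot be set against the 14, since 11 members reached 1 TPM in Chd4KO replicate 2 alone. Chd4KO replicate 2 gave 12 of the 14. In that library stood apart as high Serping1 at 669.8 TPM, Agt at 270.1 TPM, Clu at 251 TPM, Fga at 31.6 TPM, Fgg at 13.5 TPM, Hp at 4.85 TPM, Fgb at 4.79 TPM, Serpina1e at 4.38 TPM, Plg at 2.71 TPM, Itih4 at 2.46 TPM, Cfi at 2.04 TPM and Vtn at 1.95 TPM. Fibrinogen chains, haptoglobin and Itih4 are acute-phase proteins in liver, as background. The same library had the highest sum of acinar markers, 41295 TPM, and its part in these values was not tested. Of the 12, only Serping1, Agt, Clu and Plg were above every Control library in all 4 Chd4KO libraries.

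The other 2 values were in Control. Gc was at 46.8 TPM in Control replicate 3, against 25.4 to 28.9 TPM in the other 3, and this library alone made its groups overlap with Chd4KO replicate 2 at 46.2 TPM. Apob was at 6.70 TPM in Control replicate 1, against 0.936 to 1.53 TPM in the other 3.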

How the results depend on the processing

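Of the 8 member calls, Ambp, Serpina7 and Proc were met in 19 of 19 alternatives, Serpina1a in 17 of 17, Serpina1b, Fetub and Apof in 18 of 18, and Trf in 10 of 18. Each count is out of the alternatives in which the gene passed the filter. Serpina1a, at 1.08 TPM in Chd4KO replicate 2, did not pass with median-of-ratios scaling or with a minimum of 5 TPM. Of members not called, F2 was called in 7 of 18, Agt in 7, Clu in 4 and Gc in 1 of 19. The count of members called was 3 with a minimum of 5 TPM, where fewer could be tested, 13 with scaling without hormones and mitochondrial genes, and 7 to 11 without 1 library. The switched-on count of 4 was 2 at a limit of 0.5 TPM, 0 at under 0.5 and from 2 TPM, and 4 to 5 without 1 library. Other plasma protein genes called (2) came to 1 with a pseudocount of 0.1, 1 with no filter, 5 with array weights and 1 to 3 without 1 library. Liver regulators and enzymes called (1) came to 2 with no filter, 0 with a minimum of 5 TPM, 3 each with median-of-ratios scaling, scaling without hormones, quantile normalisation and voom, 5 with array weights, 2 without Chd4KO replicates 2 and 4, and 0 to 3 without 1 library. Neighbours called (1) came to 3 with no filter and 2 each with scaling without hormones, quantile normalisation and voom, and stayed at 1 without any 1 library. All genes called (451) came to 220 with a minimum of 5 TPM, 762 with median-of-ratios scaling (472 higher, 290 lower, against 233 and 218), 782 without hormones, 755 with quantile normalisation, 1364 with array weights, 778 with voom, 833 without Chd4KO replicates 2 and 4, and 171 (without Control replicate 4) to 866 (without Chd4KO replicate 4). Serpina10 turned to -0.41 without Chd4KO replicate 2, in a range of -0.41 to 0.70 without 1 library. Apoe ranged from -0.094 to 0.605 without 1 library (below 0 without Control replicate 4 or without Chd4KO replicate 2 or 3) and was at -0.0056 without Chd4KO replicates 2 and 4. Apoh turned to 0.044 with quantile normalisation and 0.039 with voom. The cause of these shifts was not tested. With the replicate block 0 liver regulators and enzymes and 274 of all genes were called, and Trf was not. Same-numbered libraries correlated at -0.02, 0.42, 0.08 and 0.04, and only number 2 correlated best with its own, so the numbers were not taken to pair samples. Depth limits values under 1 TPM.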
